A study of Homo sapiens with 24 samples.

Results

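The genes described here are the amino acid transporters of the solute carrier (SLC) families 1, 3, 7, 36, 38 and 43, taken as every row of the expression table whose symbol is SLC, 1 of these family numbers, the letter A and a number. The rule found 40 genes among 26475 rows. The filter on low counts left 26 of them for testing, and 14 were listed at too low a count.

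Cells take up amino acids through carriers that differ in substrate and driving force. SLC1 carriers import glutamate or exchange small neutral amino acids, SLC7 light chains exchange amino acids across the plasma membrane and most of them need an SLC3 heavy chain to reach it, most SLC36 carriers move amino acids with protons, and SLC38 carriers move glutamine, alanine and other neutral amino acids with sodium. In the proximal tubule such carriers return filtered amino acids to the blood, and several are induced through ATF4, a transcription factor of the amino acid and integrated stress responses.

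RNA was sequenced from HK2 cells, an immortalised human line of proximal tubule epithelium, to see how expression responds when VHL is lost. VHL is the substrate receptor of a ubiquitin ligase that degrades the hypoxia-inducible factors HIF1A and HIF2A. All cells carried a VHL transgene that needs doxycycline (dox). In WT8 the endogenous VHL gene was intact, and in MUT10 and MUT35 it had been knocked out, so that dox withdrawal removed the transgene product in all 3 clones and left only the 2 mutant clones without VHL. Each clone was sequenced with dox (dox on) and after withdrawal (dox off) in 4 replicates, 24 libraries in all. Each genotype rests on 1 or 2 single-cell clones, so differences between clones enter every comparison of mutant with WT8. Nothing in the descriptions says that the replicates were separate cultures, so the p-values measure only the spread between these libraries, which may be technical. The labels name lung as the tissue beside the HK2 line and call the dox-treated mutant libraries wild type, and the clones and dox states are used here as the study's text gives them.

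The libraries held 5206618 to 18195974 expected counts. VHL followed the dox labels in every clone. Its mean level was 220.2 counts per 1000000 counts (CPM) with dox and 30.0 CPM without it in WT8, 381 and 30.0 CPM in MUT10, and 229 and 18.2 CPM in MUT35 (exact two-sided permutation test, p = 0.0286 in each clone, the smallest 4 against 4 libraries can give). VHL transcripts counted here include those of the transgene, so the level checks the dox state and not the knockout. Of 12 known HIF targets, 10 rose and 0 fell upon withdrawal in the mutant clones, and 4 rose and 3 fell in WT8. Of all genes tested, 38.1% rose and 35.5% fell in the mutant clones, and 29.5% rose and 29.7% fell in WT8. The tubule marker PAX8 was at 171 to 573 CPM, while 8 of the 11 tubule markers, LRP2, AQP1 and SLC34A1 among them, stayed at or under 1.71 CPM. Of 7 lung epithelium markers, SFTPA1 and SFTPC were at 0 in every library and no other exceeded 2.62 CPM. The dox states also differed in how counts followed transcript GC content, and whether the origin is technical was not tested. The slope of log2 CPM against transcript GC content, relative to the mean library and per 10 percentage points of GC, had a median of 0.246 in the dox off libraries (range -0.011 to 0.4) and of -0.231 in the dox on libraries (range -0.346 to -0.027). Withdrawal and this trend cannot be told apart by design, so each withdrawal effect is given with the counts as deposited and with the GC trend of each library removed. With the trend removed, 11 of the 12 HIF targets rose and 0 fell in the mutant clones, and 1 rose and 3 fell in WT8. Of all genes, 67.0% and 40.3% were then called in either direction. Comparisons between clones at 1 dox state, and the difference of withdrawal effects between clones, set groups of the same dox state against each other, although 2 MUT10 libraries had slopes between those of the dox states.

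Per kilobase of transcript, the most abundant member was SLC43A3, at a mean of 124.9 CPM per kilobase over the 6 groups. SLC43A3 belongs to the family by sequence and is known to carry purine nucleobases. It was followed by SLC7A5 (LAT1, which imports large neutral amino acids such as leucine) at 55.5, the system A carriers SLC38A2 and SLC38A1 at 46.2 and 41.7, the glutamine exchanger SLC1A5 (ASCT2) at 38.2 and the heavy chain SLC3A2 (CD98) at 28.5 CPM per kilobase. The ranges of group means overlapped between neighbours in this order from SLC7A5 down to SLC3A2, and that of SLC43A3 (85.1 to 162) lay above those of the other members. The carriers for which the tubule is best known were scarce. SLC3A1 (rBAT) had group means of 0.574 to 1.11 CPM, and SLC7A9, its partner in cystine reabsorption, did not exceed 0.207 CPM in any library. SLC7A7, SLC36A2, SLC38A4, SLC1A3 and SLC7A14, an SLC7 member whose role is less clear, were also tested at low levels, with group means of at most 3.50 CPM. The plot of levels per kilobase shows SLC38A5, SLC1A1, SLC1A3, SLC38A4 and SLC7A7 as the members with the widest gaps between clones.

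**Figure D1:**
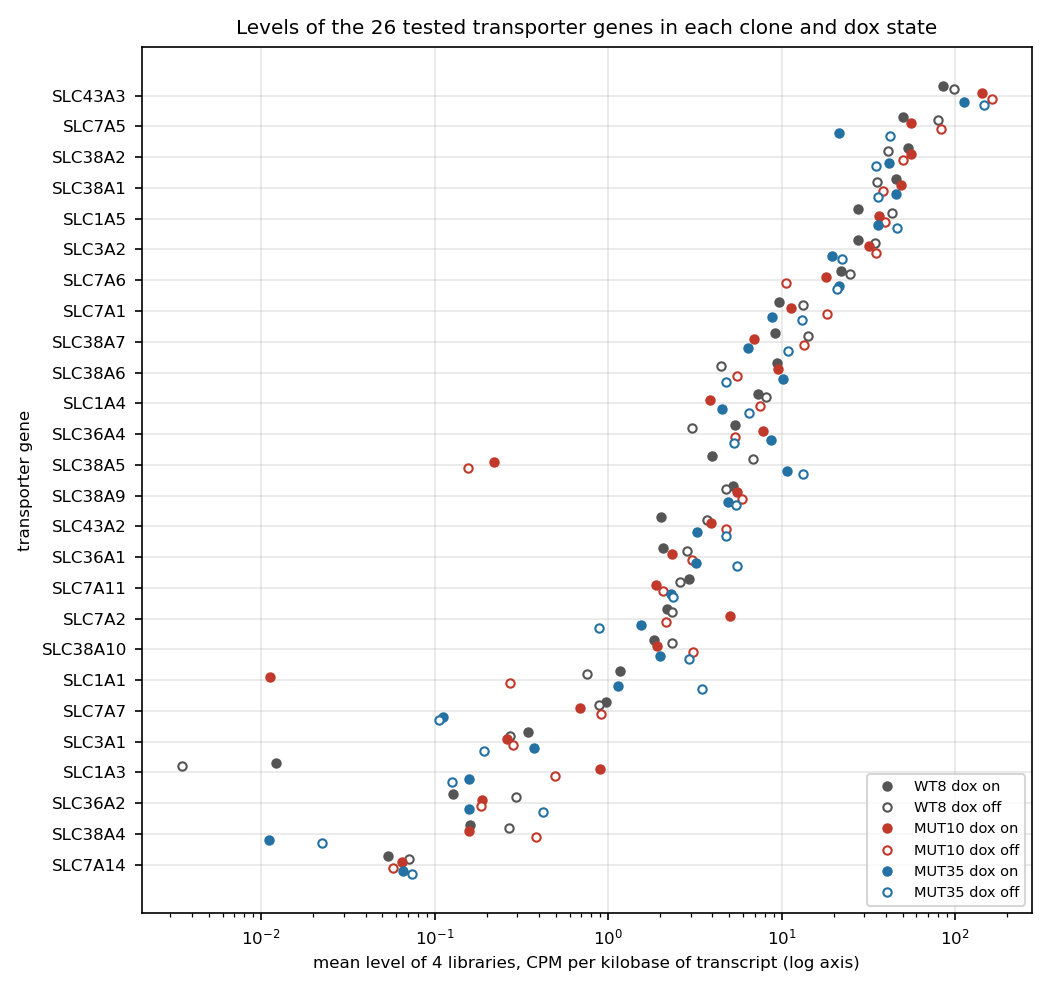
Mean level of each tested transporter gene over 4 libraries, in CPM per kilobase of canonical transcript on a log axis, with filled points for dox on and open points for dox off in each clone. SLC43A3 stands highest in every group, SLC38A5 is lowest in MUT10 and SLC1A3 is lowest in WT8.

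Of the 14 members that were not tested, SLC7A3, SLC7A4, SLC7A13 and SLC38A8 had no count in any library. The other 10 were SLC1A2, SLC1A6, SLC1A7, SLC7A8, SLC7A9, SLC7A10, SLC36A3, SLC38A3, SLC38A11 and SLC43A1. Their highest value in any library was 1.12 CPM, in SLC43A1 (LAT3).

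Promoter sequence is shown for 4 of the 6 genes whose withdrawal effect differed between the mutant clones and WT8. Of these 4, 2 rose more (SLC1A1 and SLC1A4) and 2 fell or rose less (SLC7A6 and SLC38A5). SLC7A2 and SLC38A2 are not shown. Each window runs from 250 bases before to 10 bases after a RefSeq transcription start (GRCh38.p14) and is written 5′ to 3′ on the strand of the gene. Capitals mark ACGTG and GCGTG, the core of the hypoxia response element, and TGATGNAAN, the core of the amino acid response element, on either strand. Matches may overlap, and a CACGTG counts once on each strand. SLC1A4 has 2 starts in RefSeq and both are shown.
SLC1A1, chr9:4490218-4490477, + strand: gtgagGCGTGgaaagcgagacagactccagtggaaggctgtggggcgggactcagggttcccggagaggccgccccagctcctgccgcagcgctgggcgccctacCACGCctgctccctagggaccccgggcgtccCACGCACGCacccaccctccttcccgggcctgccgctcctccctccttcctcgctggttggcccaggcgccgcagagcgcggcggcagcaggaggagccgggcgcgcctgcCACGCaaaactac
SLC1A4, first start, chr2:64988229-64988488, + strand: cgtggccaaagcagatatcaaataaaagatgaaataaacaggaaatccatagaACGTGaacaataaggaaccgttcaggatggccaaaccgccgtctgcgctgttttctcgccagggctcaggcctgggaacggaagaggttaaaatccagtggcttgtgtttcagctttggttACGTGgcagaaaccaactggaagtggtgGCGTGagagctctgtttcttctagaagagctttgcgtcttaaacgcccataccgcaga
SLC1A4, second start, chr2:64989149-64989408, + strand: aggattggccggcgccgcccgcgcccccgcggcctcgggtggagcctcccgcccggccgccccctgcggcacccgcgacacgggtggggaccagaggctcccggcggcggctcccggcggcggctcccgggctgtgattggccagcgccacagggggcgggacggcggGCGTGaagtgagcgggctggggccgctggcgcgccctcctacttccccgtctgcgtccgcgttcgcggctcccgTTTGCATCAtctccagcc
SLC7A6, chr16:68264276-68264535, + strand: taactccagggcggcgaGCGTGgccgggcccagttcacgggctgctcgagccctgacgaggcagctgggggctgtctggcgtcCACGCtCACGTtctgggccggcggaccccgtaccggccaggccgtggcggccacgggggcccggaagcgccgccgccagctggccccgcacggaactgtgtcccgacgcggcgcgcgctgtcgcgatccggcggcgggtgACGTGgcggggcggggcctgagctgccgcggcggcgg
SLC38A5, chrX:48470251-48470510, - strand: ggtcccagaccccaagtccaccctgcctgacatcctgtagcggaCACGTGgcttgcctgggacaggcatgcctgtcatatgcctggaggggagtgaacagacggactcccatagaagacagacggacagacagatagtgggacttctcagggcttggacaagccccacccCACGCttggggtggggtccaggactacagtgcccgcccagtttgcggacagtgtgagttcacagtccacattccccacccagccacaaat
The SLC1A1 window held 5 GCGTG matches and no ACGTG. The second SLC1A4 window held the single amino acid response element core of these promoters, which begins 8 bases before the start and spans it. Across 35116 RefSeq promoter windows of the same length, 44.2% held ACGTG or GCGTG and 3.27% held TGATGNAAN. Of the 53 windows of the 31 members with a RefSeq promoter, 30 held ACGTG or GCGTG and 4 held TGATGNAAN, the latter in SLC1A3, SLC1A4, SLC1A5 and SLC38A1. These are matches of letters and say nothing about binding. SLC7A2 and SLC38A2 were not among the members found with ACGTG or GCGTG. Whether either gene was among the 31 members with a window is not given here. The windows shown therefore do not stand for all 6 genes.

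The comparison that separates loss of VHL from dox withdrawal itself sets the withdrawal effect in the mutant clones against the one in WT8. SLC1A1 and SLC1A4 rose upon withdrawal in both mutant clones. In WT8, SLC1A1 fell and SLC1A4 did not pass the test. SLC7A2 fell in both mutant clones and not in WT8, and SLC7A6 fell in MUT10 and rose in WT8. SLC38A5 rose in WT8 and in MUT35 but did not pass the test in MUT10, and SLC38A2 fell less in the mutant clones than in WT8. In edgeR's quasi-likelihood test, 3 of the 26 members had a higher and 3 a lower effect in the mutant clones. Of all 13900 genes tested, 12.1% had a higher and 11.4% a lower effect, so the share of members called was close to that of all genes. The libraries are bulk RNA, in which fewer cells with a transcript and less of it per cell cannot be told apart. All 6 calls held in the same direction with the GC trend removed, where SLC7A11 and SLC38A7 also had a higher and SLC1A5, SLC3A2 and SLC43A2 also a lower effect in the mutant clones, 5 and 6 members in all (background 15.6% and 18.0%).

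SLC1A1 (EAAT3, chr9:4490468-4587469, hg38) imports glutamate, aspartate and cysteine and is the glutamate carrier of the renal tubule. In MUT35 the 4 dox on libraries were at 3.99, 4.74, 4.76 and 3.35 CPM and the dox off libraries at 13.2, 14.6, 14.7 and 9.25 CPM. In MUT10 it was at 0, 0.0918, 0 and 0.0745 CPM with dox and at 0.724, 0.861, 1.10 and 1.35 CPM without it. In WT8 it was at 5.88, 3.36, 3.71 and 4.41 CPM with dox and at 2.82, 2.65, 2.84 and 2.83 CPM without it. Every dox off library lay above every dox on library in both mutant clones, and below every one of them in WT8. Upon withdrawal the log2 fold change was 1.61 (SE 0.165, adjusted p = 5.95e-09) in MUT35 and -0.60 (SE 0.203, adjusted p = 0.0129) in WT8. The fall in WT8 did not pass the test with the GC trend removed (-0.39, adjusted p = 0.107). In MUT10 the gene had 2 counts in all with dox and 40 without it, a ratio of 21.6 after scaling, with a 95% interval of 5.60 to 184 that covers counting error only. The effect in the mutant clones exceeded that in WT8 by 3.47 on the log2 scale (SE 0.361, adjusted p = 2.4e-08), a value that leans on the few counts in MUT10.

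SLC1A4 (ASCT1, chr2:64988477-65023865) exchanges serine, alanine, cysteine and threonine. In MUT10 its level went from 17.1, 19.2, 16.0 and 18.4 CPM with dox to 39.1, 32.5, 32.9 and 32.8 CPM without it. In MUT35 it went from 21.8, 20.4, 19.8 and 20.5 CPM to 27.5, 31.0, 32.5 and 28.2 CPM. In WT8 it was at 33.0, 34.9, 33.6 and 32.6 CPM with dox and 37.9, 37.8, 37.9 and 34.6 CPM without. The dox states did not overlap in either mutant clone, and without dox the mutant clones were still lower than WT8, with a log2 difference of -0.21 (adjusted p = 0.00511) against -0.81 with dox. Its log2 fold change was 0.95 (SE 0.078) in MUT10, 0.53 (SE 0.0773) in MUT35 and 0.14 (SE 0.0744, adjusted p = 0.0974) in WT8. The difference between the mutant clones and WT8 was 0.60 (SE 0.0926, adjusted p = 1.65e-05, quasi-likelihood test), and 0.58 (adjusted p = 5.02e-07) with the GC trend removed.

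SLC7A2 (CAT2, on chromosome 8) imports arginine, lysine and ornithine. MUT10 fell from 38.7, 35.4, 38.1 and 40.9 CPM with dox to 15.6, 15.6, 16.3 and 18.3 CPM without it. MUT35 fell from 12.3, 12.3, 11.7 and 11.1 CPM to 7.0, 5.85, 5.74 and 8.39 CPM. WT8 libraries were at 14.8, 16.3, 18.0 and 17.2 CPM with dox and 16.8, 19.3, 17.8 and 17.7 CPM without, and here the states overlapped. With dox, MUT10 held the highest level of any group. The log2 fold change was -1.22 (SE 0.0871) in MUT10, -0.81 (SE 0.108) in MUT35 and 0.10 (SE 0.0935, adjusted p = 0.377) in WT8. The mutant clones differed from WT8 by -1.11 (SE 0.117, adjusted p = 2.72e-08, quasi-likelihood test). With the GC trend removed this difference was -1.12, and the WT8 effect became a rise of 0.42 (adjusted p = 0.00019).

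SLC7A6 (y+LAT2, chr16:68264516-68301823) pairs with SLC3A2 and exchanges intracellular arginine for glutamine and sodium. In MUT10 it fell from 109, 108, 114 and 119.9 CPM with dox to 70.7, 61.9, 67.3 and 64.1 CPM without it, with no overlap. In MUT35 it was at 135, 130.4, 133 and 135 CPM with dox and 129, 126, 131 and 135 CPM without. In WT8 it rose from 140.0, 142, 134 and 132 CPM to 153, 153, 158 and 159 CPM. The log2 fold change was -0.78 (SE 0.0513, adjusted p = 5.44e-13) in MUT10, -0.03 (SE 0.0494, adjusted p = 0.597) in MUT35 and 0.19 (SE 0.0495, adjusted p = 0.00214) in WT8. The 2 mutant clones differed from each other by -0.74 (SE 0.0712, adjusted p = 1.6e-08), so the difference of their mean from WT8 (-0.59, SE 0.061, adjusted p = 2.14e-08) averages clones that did not respond alike. The gene SLC7A6OS, which lies beside SLC7A6, was at 12.1 to 22.6 CPM and had a log2 fold change of 0.02 in MUT10 (adjusted p = 0.907).

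SLC38A5 (SNAT5, chrX:48458537-48470260) is a system N carrier of glutamine, serine and glycine. It separated the clones more than the dox states. MUT10 libraries were at 0.239, 0.643, 0.581 and 0.298 CPM with dox and 0.310, 0.172, 0.367 and 0.387 CPM without. WT8 rose from 7.40, 9.57, 7.65 and 6.82 CPM to 16.1, 13.2, 13.0 and 12.6 CPM. MUT35 was at 19.0, 25.4, 18.5 and 22.5 CPM with dox and 27.6, 23.9, 27.0 and 27.2 CPM without, with overlap. Withdrawal gave a log2 fold change of 0.80 (SE 0.133) in WT8, 0.30 (SE 0.109, adjusted p = 0.0183) in MUT35 and -0.53 (SE 0.466, adjusted p = 0.353) in MUT10. With the GC trend removed, MUT35 no longer passed the test (-0.13, adjusted p = 0.238). The mutant clones differed from WT8 by -0.92 (SE 0.276, adjusted p = 0.016, quasi-likelihood test), a mean over both mutant clones, of which MUT10 held under 1 CPM of the transcript.

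SLC38A2 (SNAT2, chr12:46358188-46372773) is a system A carrier whose transcript is induced when amino acids run short. WT8 was at 261, 250.2, 253 and 259.9 CPM with dox and 191, 196, 197 and 200.2 CPM without. MUT10 was at 273, 243, 268 and 284 CPM with dox and 238, 243, 226 and 260.4 CPM without, and MUT35 at 202, 199, 201 and 195 CPM with dox and 173, 161, 171 and 164 CPM without. It fell in each clone, with log2 fold changes of -0.38, -0.14 and -0.25, and the effect in the mutant clones was higher by 0.18 (SE 0.0616, adjusted p = 0.029). This small difference is the least secure of the 6. It lost its call when any 1 of 5 libraries was left out (WT8 dox off replicates 1 and 2, WT8 dox on replicates 1 and 4, and MUT10 dox on replicate 2, with adjusted p of 0.0516 to 0.0839), and without both MUT10 libraries of unlike GC trend, described further on (0.12, adjusted p = 0.0886). With the GC trend removed SLC38A2 rose in every clone, and by 0.18 more in the mutant clones (adjusted p = 0.0146).

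The other 20 members did not pass the test of a different withdrawal effect, which does not show that the clones responded alike. SLC7A5 had a difference of 0.12 (SE 0.158, adjusted p = 0.648), SLC3A2 of -0.16 (SE 0.0963, adjusted p = 0.266), and SLC7A11, the cystine importer xCT, of 0.27 (SE 0.127, adjusted p = 0.135). Between the 2 mutant clones, 2 members had a higher and 1 a lower effect in MUT10, beside 6.68% and 4.4% of all genes. The 3 were SLC1A1 (2.51, SE 0.659, adjusted p = 0.0114), SLC1A4 (0.42, SE 0.11, adjusted p = 0.0108) and SLC7A6. For SLC1A1 and SLC1A4, both clones rose and MUT10 rose further on the log2 scale. For SLC1A1 this rests on 2 counts in MUT10 with dox, and DESeq2 did not call it (adjusted p = 0.0578). Its mean went from 0.0416 to 1.01 CPM in MUT10 and from 4.21 to 12.9 CPM in MUT35. With the GC trend removed, 2 members had a higher and 6 a lower effect in MUT10, beside 9.86% and 10.2% of all genes.

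Many members differed between the dox states in every clone, as did most genes. In the 2 mutant clones as 1 contrast, 11 of 26 members rose and 7 fell in edgeR's quasi-likelihood test, beside 38.1% and 35.5% of all genes. In WT8, 11 rose and 5 fell, beside 29.5% and 29.7%. In MUT10 the counts were 9 and 7 (background 33.7% and 32.2%) and in MUT35 13 and 5 (background 31.9% and 31.2%). The median log2 fold change of the members was 0.15 in the mutant clones and 0.20 in WT8, against 0.03 and 0.01 over all genes. These effects followed transcript GC content. Across the 26 members, Spearman's rho between GC content and log2 fold change was 0.515 in the mutant clones and 0.668 in WT8, and across 13458 genes it was 0.635 and 0.745. The points share libraries and are given as a description. The members ran from SLC36A4 at 35.2% GC to SLC38A10 at 63.9%. With the GC trend removed, 10 of the 18 calls in the mutant clones held in direction, 3 (SLC1A5, SLC3A2 and SLC38A2) were called the other way, 5 did not pass and 3 (SLC7A11, SLC38A5 and SLC38A9) were added, beside 67.0% of all genes called. In WT8, 8 of 16 held, 2 turned, 6 did not pass and 3 were added, beside 40.3% of all genes called. The part of the trend in these effects was not tested further.

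Among the members that held with the GC trend removed, SLC38A6, an SLC38 carrier of poorly known substrate, fell in all 3 clones. Its libraries went from 16.9, 14.1, 14.6 and 15.1 CPM to 7.48, 6.80, 6.84 and 7.45 CPM in WT8. In MUT10 they went from 16.6, 12.5, 15.7 and 16.2 CPM to 7.44, 8.78, 8.81 and 10.6 CPM, and in MUT35 from 16.2, 15.3, 16.8 and 17.0 CPM to 7.97, 6.21, 8.23 and 8.17 CPM. No library without dox reached the lowest library with dox. The log2 fold change in the mutant clones was -0.93 (SE 0.0787, adjusted p = 3.89e-11), and -0.43 (adjusted p = 2.93e-07) with the GC trend removed.

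SLC38A7, which exports glutamine from lysosomes, rose in all 3 clones. It was at 31.9, 40.5, 39.9 and 37.0 CPM with dox and 58.1, 59.5, 55.6 and 57.0 CPM without in WT8. MUT10 went from 26.8, 33.0, 29.0 and 24.7 CPM to 64.4, 53.9, 57.7 and 42.7 CPM, and MUT35 from 28.2, 28.3, 23.9 and 23.9 CPM to 41.9, 45.0, 44.3 and 45.0 CPM. The states did not overlap in any clone. In the mutant clones its log2 fold change was 0.85 (SE 0.0718, adjusted p = 3.49e-11), and 0.47 with the GC trend removed.

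The arginine importer SLC7A1 (CAT1) also rose in all 3 clones, while its relative SLC7A2 fell in the mutant ones. SLC7A1 went from 71.5, 70.3, 72.6 and 69.2 CPM to 101, 104, 91.8 and 96.6 CPM in WT8 and from 81.4, 93.2, 82.1 and 78.6 CPM to 147, 128, 139.7 and 120.2 CPM in MUT10. In MUT35 it went from 62.1, 64.3, 64.9 and 68.9 CPM to 93.5, 92.3, 93.6 and 106 CPM. Its log2 fold change in the mutant clones was 0.62 (SE 0.0473, adjusted p = 4.66e-12), and 0.42 with the GC trend removed. The proton-coupled SLC36A1, found on lysosomes, rose likewise, by 0.58 (SE 0.0735) in the mutant clones and 0.45 (SE 0.114) in WT8, with group means of 12.0 to 18.5 CPM with dox and 16.5 to 31.9 CPM without.

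With the counts as deposited, SLC7A5 rose in all 3 clones and its heavy chain SLC3A2 in WT8 and MUT35. SLC7A5 was at 198, 271, 230.0 and 222 CPM with dox and 379, 379, 341 and 350.0 CPM without in WT8. In MUT10 it was at 229, 325, 249 and 215 CPM with dox and 465, 384, 399.9 and 271 CPM without, and in MUT35 at 99.0, 104, 90.3 and 97.9 CPM with dox and 184, 207, 175 and 200.2 CPM without. MUT10 overlapped through dox on replicate 2 and dox off replicate 4, the 2 libraries whose GC slopes (-0.027 and -0.011) lay between the dox states. The log2 fold change of SLC7A5 was 0.58, 0.97 and 0.65 in MUT10, MUT35 and WT8, and with the GC trend removed only MUT35 passed the test (0.40, adjusted p = 1.4e-08, against -0.01 and 0.10). SLC3A2, at group means of 36.6 to 66.1 CPM, rose by 0.16 (SE 0.0558, adjusted p = 0.0104) in the mutant clones and fell by 0.27 with the GC trend removed. The cystine importer SLC7A11, another partner of SLC3A2, had a log2 fold change of 0.09 (SE 0.0744, adjusted p = 0.26) in the mutant clones and 0.70 (adjusted p = 2.22e-13) with the GC trend removed. In WT8 SLC7A11 was at -0.17 (adjusted p = 0.148), and likewise rose with the GC trend removed (0.42, adjusted p = 4.75e-05). SLC7A7 (y+LAT1) did not pass the test in any clone.

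SLC38A10, whose transport function is less well known, and SLC36A4, a proton-independent carrier of proline and tryptophan, did not hold in the mutant clones. SLC38A10 went from 8.35, 8.33, 8.13 and 8.42 CPM to 10.9, 11.9, 9.46 and 9.94 CPM in WT8, from 8.74, 9.73, 8.23 and 7.60 CPM to 14.4, 14.2, 13.5 and 13.3 CPM in MUT10 and from 9.82, 8.04, 7.80 and 10.0 CPM to 11.8, 13.3, 11.7 and 15.6 CPM in MUT35. Its log2 fold change in the mutant clones was 0.63 (SE 0.0782, adjusted p = 5.21e-08), and -0.04 (adjusted p = 0.692) with the GC trend removed. In WT8 its rise of 0.33 (adjusted p = 0.0174) became a fall (-0.32, adjusted p = 0.0381). SLC36A4 went from 38.1, 28.8, 30.1 and 33.2 CPM to 16.7, 17.0, 19.4 and 20.7 CPM in WT8, from 53.7, 35.6, 46.2 and 53.6 CPM to 27.4, 30.6, 29.9 and 42.9 CPM in MUT10 and from 53.2, 51.3, 54.7 and 51.5 CPM to 35.2, 29.1, 33.8 and 29.9 CPM in MUT35. Its log2 fold change was -0.62 (SE 0.0865, adjusted p = 3.57e-07), and -0.01 (adjusted p = 0.824) with the GC trend removed, while in WT8 it still fell (-0.80 as deposited, -0.20 with the trend removed, adjusted p = 0.0263). SLC38A1 (SNAT1, a system A glutamine carrier, at group means of 288 to 395 CPM) had log2 fold changes of -0.34 in the mutant clones and -0.36 in WT8, and was at -0.02 in both with the GC trend removed. SLC1A5 rose by 0.25 (SE 0.0903, adjusted p = 0.0158) in the mutant clones and fell by 0.33 with the trend removed. SLC43A3 rose by 0.27 in the mutant clones, and by 0.07 (adjusted p = 0.0462) with the trend removed. SLC38A9, the lysosomal arginine sensor of mTORC1, had 0.13 (adjusted p = 0.108) and 0.52 (adjusted p = 6.26e-09) in the mutant clones. In WT8 SLC38A9 had -0.14 (adjusted p = 0.286), and 0.26 (adjusted p = 0.0285) with the trend removed.

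Some calls were not shared by all clones. SLC43A2 (LAT4) rose by 0.89 (SE 0.155, adjusted p = 3.19e-05) in WT8, from 16.3 ± 2.17 to 30.1 ± 3.29 CPM (SD, n = 4), and by 0.45 with the GC trend removed. In MUT35 it rose by 0.55 (adjusted p = 0.00143), and no longer passed with the trend removed (0.09, adjusted p = 0.396). SLC36A2, a proline and glycine carrier of the tubule, rose in MUT35 from 0.539 ± 0.330 to 1.43 ± 0.604 CPM (log2 fold change 1.32, SE 0.48, adjusted p = 0.0183) and lost the call when any 1 of MUT35 dox off replicates 3 and 4 and dox on replicates 3 and 4 was left out (adjusted p of 0.0503 to 0.0796). SLC38A4 (SNAT4) rose in MUT10 from 0.631 ± 0.470 to 1.52 ± 0.555 CPM (1.24, SE 0.463, adjusted p = 0.0205), and not without dox on replicate 2 and dox off replicate 4 (0.90, adjusted p = 0.0857), nor when dox off replicate 1, dox on replicate 2 or dox on replicate 3 alone was left out.

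The clones also differed at a fixed dox state. Without dox, 8 members stood above WT8 in the mutant clones and 10 below it (background 27.6% and 28.1%). With dox, when all clones expressed VHL, 7 were higher and 10 lower (background 20.6% and 22.6%). With the GC trend removed, every one of these 18 and 17 calls held its direction, beside 63.2% and 51.6% of all genes called. These comparisons share libraries with those above, and the mean of the mutant clones can hide opposite clones.

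SLC1A3 (EAAT1, a glutamate and aspartate importer best known from glia) was present in MUT10 and nearly absent in WT8. MUT10 libraries were at 3.95, 3.49, 2.91 and 3.65 CPM with dox and at 2.17, 1.46, 2.20 and 1.93 CPM without. MUT35 was at 0.432, 0.275, 0.903 and 0.857 CPM with dox and 0.323, 0.358, 0.433 and 0.860 CPM without, and WT8 had 1 count in each dox state, in dox on replicate 1 and dox off replicate 3. Against that count the level in MUT10 was 110-fold with dox, with a 95% counting interval of 19.5 to 4391, and 94.8-fold without it (16.5 to 3793). MUT35 was at 19.4-fold with dox (3.23 to 793) and 24.7-fold without (3.90 to 1029). The fall of SLC1A3 upon withdrawal in the mutant clones (-0.58, SE 0.253, adjusted p = 0.0411) did not pass with the GC trend removed (adjusted p = 0.205) or when any 1 of 8 libraries was left out (adjusted p of 0.0501 to 0.131), these being MUT10 dox off replicate 2, MUT10 dox on replicates 1 and 4, MUT35 dox off replicates 1, 2 and 3, and MUT35 dox on replicates 3 and 4. In MUT10 alone it was -0.86 (SE 0.264, adjusted p = 0.00585), and held with the trend removed (-0.66, adjusted p = 0.0265).

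SLC38A5 was lower in the mutant clones, with a log2 difference from WT8 of -2.25 without dox (SE 0.159, adjusted p = 1.5e-12) and -1.33 with it (SE 0.17, adjusted p = 2.71e-07), although MUT35 stood above WT8 in both states. SLC7A7 was at -1.48 (SE 0.254, adjusted p = 1.44e-05) and -1.77 (SE 0.253, adjusted p = 1.58e-06), and here MUT35 was the low clone, at 0.222 and 0.233 CPM against 1.44 to 2.04 CPM in the other groups. SLC38A4 was at -1.53 (SE 0.503, adjusted p = 0.0115) and -1.92 (SE 0.627, adjusted p = 0.0142), again through MUT35 at 0.0896 and 0.0442 CPM. SLC1A1 was lower with dox (-3.09, SE 0.288, adjusted p = 8.87e-10), with MUT35 at the WT8 level and MUT10 near 0. It did not pass the test without dox (0.37, SE 0.192, adjusted p = 0.102), a mean over opposite clones. There MUT35 at 12.9 CPM stood above WT8 at 2.79 CPM, and MUT10 at 1.01 CPM stood below it. SLC36A4 was higher by 0.80 (SE 0.115) without dox and by 0.62 (SE 0.111) with it, in both mutant clones. The light chain SLC7A5 was at -0.43 (SE 0.109, adjusted p = 0.00192) and -0.55 (SE 0.111, adjusted p = 0.000309), with MUT35 at 191 and 97.9 CPM MUT10 at 379.8 and 255 CPM and WT8 at 362 and 230.1 CPM. SLC43A3 was higher by 0.64 (SE 0.0518) and 0.58 (SE 0.0524) and highest in MUT10.

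Other genes of amino acid handling were counted by list. The shares of all genes to read these counts against are 38.1% higher and 35.5% lower upon withdrawal in the mutant clones, 29.5% and 29.7% in WT8, and 12.1% and 11.4% in the difference of effects. The last pair was 15.6% and 18.0% with the GC trend removed, where 67.0% of genes in the mutant clones and 40.3% in WT8 were called in either direction. Of 18 tested amino acid transporters of other families, 9 rose and 2 fell in the mutant clones and 6 rose and 2 fell in WT8, and 4 had a higher withdrawal effect in the mutant clones and 0 a lower one (6 and 1 with the GC trend removed). These 4 were the lysosomal histidine and peptide carrier SLC15A4 (0.82, SE 0.104), the lysosomal cystine exporter CTNS (0.58, SE 0.109), the creatine importer SLC6A8 (0.43, SE 0.12) and the glycine importer SLC6A9 (1.06, SE 0.268). The mean of SLC6A9 went from 3.05 to 8.13 CPM in MUT10 and from 1.24 to 1.92 CPM in MUT35, with 3.17 and 3.13 CPM in WT8. SLC6A15, a neutral amino acid importer, fell by 0.34 in the mutant clones. With the GC trend removed it was called the other way (0.16, adjusted p = 0.0015, quasi-likelihood test). Its mean in WT8 also went down, from 63.3 to 53.4 CPM.

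Of 29 tested genes of the amino acid and integrated stress responses, 17 rose and 5 fell in the mutant clones, 10 rose and 8 fell in WT8, and 7 had a higher and 1 a lower effect in the mutant clones. Removal of the GC trend made these counts 16 and 3, 6 and 8, and 10 and 3. The pseudokinase TRIB3 had a withdrawal effect 1.06 higher (SE 0.114) and the mTORC1 inhibitor DDIT4 1.39 higher (SE 0.148). The effect on the lipoprotein receptor VLDLR was 0.65 higher (SE 0.0614) and that on asparagine synthetase (ASNS) 0.57 higher (SE 0.0915). The value for VLDLR averages unlike clones. Its mean went from 66.6 to 148 CPM in MUT10 and from 186 to 209 CPM in MUT35, with 114.5 and 115.4 CPM in WT8. The mean of ASNS went from 53.3 to 60.9 CPM in MUT10 and from 33.5 to 35.7 CPM in MUT35. In WT8 it went down from 48.8 to 36.3 CPM. DDIT4 and VLDLR are also known HIF targets. PPP1R15B, a regulator of eIF2 phosphorylation, differed by -0.25 (SE 0.0617). Of the serine and folate enzymes on the list, PSAT1 and MTHFD2 fell in the mutant clones (-0.39 and -0.37). MTHFD2 no longer passed with the GC trend removed (-0.04, adjusted p = 0.344). Their means also went down in WT8, from 73.9 to 55.7 CPM for PSAT1 and from 122 to 99.5 CPM for MTHFD2.

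Of 33 tested genes that report amino acid supply to mTORC1, 20 rose and 7 fell in the mutant clones, 18 rose and 9 fell in WT8, and 6 had a higher and 3 a lower effect in the mutant clones. After removal of the GC trend the counts were 15 and 9, 4 and 6, and 8 and 5, so that most rises in WT8 did not hold. RRAGD, a Rag GTPase, had the smallest adjusted p and went from 17.5 to 120.4 CPM in MUT10 and from 11.1 to 40.8 CPM in MUT35, with 9.22 and 7.65 CPM in WT8, a difference in effect of 2.60 (SE 0.136, adjusted p = 3.17e-14, quasi-likelihood test). RRAGA differed by 1.26 (SE 0.0751), the folliculin partner FNIP2 by 1.27 (SE 0.129) and RRAGC by 0.50 (SE 0.127). The mean of RRAGC went up in MUT10 alone (43.6 to 49.2 CPM). It went down in MUT35 (33.9 to 23.7 CPM) and in WT8 (34.4 to 21.5 CPM). The GATOR components SEH1L and SEC13 differed by -0.22 and -0.24. RHEB fell by 0.65 in the mutant clones, from 207 to 209 CPM with dox to 129 to 137 CPM without, and stood at 197 and 138 CPM in WT8.

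Of 15 tested glutamine, glutamate and proline enzymes, 8 rose and 5 fell in the mutant clones (6 and 3 with the GC trend removed), 5 rose and 5 fell in WT8 (3 and 5), and 5 had a higher and 2 a lower effect in the mutant clones (6 and 2). Proline dehydrogenase (PRODH) went from 0.149 to 10.1 CPM in MUT10 and from 0.460 to 4.38 CPM in MUT35. In WT8 its mean was 0.253 CPM with dox and 0.695 CPM without. The difference from WT8 of 3.19 (SE 0.823, adjusted p = 0.00506, quasi-likelihood test) leans on these low levels. The alanine transaminase GPT2 differed by 0.89 (SE 0.0898) and ALDH18A1, which begins the synthesis of proline from glutamate, by 0.46 (SE 0.0636). Glutamine synthetase (GLUL) differed by -0.31 (SE 0.065). Of 11 tested glutathione genes, GGT1 and ABCC1 had a higher effect in the mutant clones (0.60, SE 0.163, and 0.37, SE 0.102) and CHAC2 a lower one (-0.66, SE 0.188). The median difference of effects over all genes was 0.01 on the log2 scale. The list medians were 0.02 for the other transporters, 0.19 for the stress response, 0.07 for mTORC1, 0.12 for the glutamine enzymes and 0.05 for glutathione, against 0.12 for the 26 members themselves.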

How the data were processed

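The authors prepared poly(A) libraries from HK2 clones, mapped the reads to hg38 and counted them with RSEM and bowtie2 (versions not given in the sources used here), and deposited expected counts per gene symbol and library, not scaled to library size. The labels and the study's methods name different library kits. The strand setting of the counting is not given.

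Here the expected counts were rounded and scaled by TMM in edgeR 4.0.16 (R 4.3.3). edgeR's filter on low counts left 13900 genes. A quasi-likelihood model with 1 mean per clone and dox state was fitted over all 24 libraries, and 8 contrasts were tested with Benjamini-Hochberg adjustment over all genes at a threshold of 0.05. CPM is per 1000000 counts of the TMM-scaled library, and group errors are SD over 4 libraries. The common biological coefficient of variation was 8.37%. Transcript length and GC content came from GENCODE v44 canonical transcripts and were known for 96.8% of tested genes. The GC correction removed a spline (5 degrees of freedom) of log2 count on GC content from each library. Intervals of count ratios are exact at 95% and cover counting error only. No 2 replicates agreed within sampling noise (lowest chi-square per gene 1.89).

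In simulated data for the mutant clones over 13659 genes, 79.2% of genes changed 1.5-fold, 95.9% changed 2-fold and 100% changed 4-fold were called, with 6 false calls. The rates leave out changed genes that the filter on low counts removed. The simulated libraries had 50 genes changed at each fold, no GC trend and no differences between clones. These rates therefore do not measure any errors that the trend may bring to the withdrawal tests.

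Per-library values were given for up to 10 members with the largest called change in the mutant clones and up to 8 in the difference from WT8, and group means for the 5 largest in each other comparison and the 6 most abundant. Of each gene list, up to 4 genes per direction with the smallest adjusted p could be named. Values of 1 listed gene and 1 marker are not reported here. The members, lists and rules were chosen with earlier results of these data known. Alternatives were DESeq2 1.42.0, limma-voom (limma 3.58.1), RLE factors, library size alone, no filter, at least 10 counts in every library, the replicate number as a block, GC correction with and without it, fits of only the libraries compared, leaving out 2 MUT10 libraries, and leaving out each library in turn.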

Additional observations from a re-analysis of the deposited data

Results flagged for a closer look

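Of 156 groups of 4 libraries (26 genes in 6 groups), 15 held a library set apart from the others by Dixon's test, where chance gives about 1 in 20. MUT35 dox off replicate 2 accounted for 5 of them, with SLC38A1 at 264 CPM (others from 299.7), SLC38A5 at 23.9, SLC38A6 at 6.21 and SLC7A11 at 17.3 CPM as the lowest value and SLC38A4 at 0.358 CPM as the highest. SLC7A11 was also highest in MUT10 dox off replicate 4 (23.0 CPM) and in MUT35 dox on replicate 1 (24.8 CPM). SLC1A4 stood low in WT8 dox off replicate 4 (34.6 CPM, others from 37.8) and high in MUT10 dox off replicate 1 (39.1 CPM, others up to 32.9). SLC38A5 stood high in WT8 dox off replicate 1 (16.1 CPM), SLC7A1 in MUT35 dox off replicate 4 (106 CPM) and SLC36A2 in MUT35 dox on replicate 2 (1.03 CPM). SLC1A1 was lowest in WT8 dox off replicate 2 by a small margin (2.65 CPM against 2.82 to 2.84). The 2 remaining cases are the single SLC1A3 counts in WT8 dox on replicate 1 (0.190 CPM) and dox off replicate 3 (0.0547 CPM).

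The withdrawal effect on the log2 scale differed between the mutant clones and WT8, by edgeR's quasi-likelihood test, for SLC1A1 (3.47), SLC1A4 (0.60), SLC38A2 (0.18), SLC38A5 (-0.92), SLC7A2 (-1.11) and SLC7A6 (-0.59). It differed between MUT10 and MUT35 for SLC1A1 (2.51), SLC1A4 (0.42) and SLC7A6 (-0.74).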

How the results depend on the processing

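Removing the GC trend, alone or with a replicate block, left 3 members lower upon withdrawal in WT8 (5 as reported), and gave 5 higher in the difference between the mutant clones and WT8 (3 as reported), with 6 lower alone and 5 lower with the block (3 as reported). It gave 6 lower in MUT10 minus MUT35 (1 as reported), and turned SLC38A10 in the mutant clones to -0.0378, or -0.0379 with the block. DESeq2 gave 5 lower in the difference from WT8, and 1 higher and 2 lower in MUT10 minus MUT35, where SLC1A1 was at 2.78 (adjusted p = 0.0578). In that comparison RLE factors gave 2 lower, library size alone 4 and leaving out the 2 MUT10 libraries 2, while a minimum of 10 counts in every library, which drops SLC1A1, left 1 higher. The same minimum left 6 lower between the mutant clones and WT8 with dox. The cause of these moves was not tested, other than where genes dropped out.

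With 1 library left out, the counts higher and lower ran from 10 to 12 and 6 to 7 in the mutant clones, 8 to 12 and 6 to 7 in MUT10, 10 to 13 and 5 to 6 in MUT35, and 10 to 12 and 4 to 5 in WT8. They ran from 2 to 4 and 3 to 4 in the difference from WT8, 2 to 2 and 1 to 3 in MUT10 minus MUT35, 7 to 9 and 8 to 10 between clones without dox, and 6 to 7 and 9 to 11 with it. Of 1056 values of named genes under these settings, 1034 kept direction and call. Same-numbered replicates deviated together in some cases and not in others (12 pairs, r from -0.441 to 0.682, 6 over 0.1, 7 correlating best with their own number), so the numbers were not taken as pairs. The replicate block alone moved 1 count, from 3 to 4 members lower in the difference from WT8, and changed none of the 44 named results, and limma-voom changed none. SLC38A2 in the difference from WT8 lost its call with RLE factors, library size alone and no filter (adjusted p = 0.0507, 0.0718 and 0.134), and SLC1A3 in the mutant clones with DESeq2 (adjusted p = 0.0583). SLC38A4 between clones with dox lost its call without WT8 dox on replicate 3 or 4 (adjusted p = 0.0614 and 0.0663). Depth limits what can be said of SLC1A3, SLC36A2, SLC38A4, SLC3A1, SLC7A7 and SLC7A14, and of SLC1A1 and SLC38A5 in MUT10.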

Other observations

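Summed over all 40 members, transporter transcripts came to 1650 ± 42.4 CPM (SD, n = 4) with dox and 1805 ± 21.3 CPM without in WT8, 1897 ± 33.6 and 2003 ± 135 CPM in MUT10, and 1546 ± 12.1 and 1721 ± 19.2 CPM in MUT35. SLC38A1 made up 19.1%, SLC43A3 18.5% and SLC7A5 14.3% of the mean sum. The SLC7A5 pseudogenes SLC7A5P1 and SLC7A5P2 were counted at no more than 0.275 and 1.71 CPM, and SLC7A11-AS1, which is antisense to SLC7A11, at no more than 0.358 CPM.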
